A study of Homo sapiens with 6 samples.

Results

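Messenger RNA levels of 8 SOX transcription factor genes were followed in DU145 cells, a human prostate cancer line, after transfection with an siRNA against RCC2 (siRCC2) or with a control siRNA (siCtrl). The members, SOX2, SOX4, SOX6, SOX7, SOX9, SOX12, SOX13 and SOX15, were taken by gene name, and each has 1 row among the 50868 genes of the deposited count tables. Each group had 3 libraries, numbered by their titles. The labels give the siRCC2 cells as an RCC2 knockdown and the siCtrl cells as RCC2 wild type, and name no other agent, dose or time. Separate cultures are not mentioned, so the variation behind each p-value is that among 3 libraries and may be technical. The labels do not give siRNA sequences.

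SOX proteins bind DNA through an HMG box, a fold that enters the minor groove and bends the double helix, and they usually act beside a partner factor on the same stretch of DNA. The family is divided into groups by the sequence of that box. SOX2 belongs to SoxB1, SOX4 and SOX12 to SoxC, SOX6 and SOX13 to SoxD, SOX9 to SoxE, SOX7 to SoxF and SOX15 to SoxG. SOX2 is a pluripotency factor also found in basal prostate epithelium, SOX9 acts in prostate budding and in cartilage, and SOX4 is often raised in prostate tumours.

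Total counts ran from 17377191 to 19895431 per library. RCC2 itself had 59.2, 57.5 and 54.8 CPM (counts scaled to library size, with TMM, the trimmed mean of M-values) in siRCC2 replicates 1 to 3, against 198, 194 and 191 CPM in siCtrl replicates 1 to 3, so it fell by 1.76 ± 0.07 on the log2 scale (edgeR adjusted p = 2e-05, error as SE). The first principal component separated the groups. The second spread the siRCC2 libraries, at 41.5, -13.3 and -35.2 for replicates 1 to 3, against -3.8 to 5.4 in siCtrl libraries. The epithelial markers KRT8, KRT18, KRT19, EPCAM and CDH1 were all expressed. Their sum was 1620 to 1820 CPM in siRCC2 and 1310 to 1330 CPM in siCtrl libraries. KRT8, KRT18 and CDH1 were higher in siRCC2 cells. EPCAM was lower, at 10.98 CPM in siRCC2 against 15.35 CPM in siCtrl cells (edgeR adjusted p = 0.0181). KRT19 was at 399.1 CPM in siRCC2 against 442.5 CPM in siCtrl cells (edgeR adjusted p = 0.192). Of the luminal prostate markers, KLK2 had 0 counts in every library. Leukocyte markers summed to 1.89 to 3.3 CPM in siRCC2 and 3.56 to 3.92 CPM in siCtrl libraries, endothelial markers to 0.315 to 0.824 and 0.943 to 1.46 CPM, and fibroblast markers to 10.9 to 14.1 and 13.4 to 16.2 CPM.

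Promoter sequence from RefSeq (GRCh38.p14, 250 bases before to 50 after the start) was at hand for 5 of the 8 members. Those of SOX12, SOX13 and SOX4 are shown here because these genes carry most SOX reads and moved in both directions. For SOX12 and SOX13 the bases lie before both the RefSeq start and the deposited locus, on the plus strand, at chr20:325302-325400 and chr1:204072865-204073114. For SOX4 the RefSeq start lies 982 bases inside the deposited locus, so 30-base windows are given, at chr6:21593558-21593587, chr6:21593625-21593654, chr6:21593682-21593711 and chr6:21593729-21593758. Capitals mark matches, on either strand, to CCAAT (the box bound by NF-Y, read ATTGG on the other strand) and to ATGCAAAT (the octamer bound by POU factors).
SOX12: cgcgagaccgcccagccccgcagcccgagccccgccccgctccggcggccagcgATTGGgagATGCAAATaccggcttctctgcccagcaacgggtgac
SOX13: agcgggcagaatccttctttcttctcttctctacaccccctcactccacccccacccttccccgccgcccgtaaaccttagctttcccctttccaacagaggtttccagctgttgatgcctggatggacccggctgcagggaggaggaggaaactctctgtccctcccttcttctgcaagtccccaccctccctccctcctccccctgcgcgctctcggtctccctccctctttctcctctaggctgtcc
SOX4, window 1: tttgctctgtaaATTGGaatgaggtcagat
SOX4, window 2: tcgggttccaagCCAATgggaagcccgggg
SOX4, window 3: ttacagcagctgATTGGctgcagccaagac
SOX4, window 4: gcgcgaggcggaATTGGggtctgctctaag

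The motifs were picked with the sequences in view and are a description of these letters alone. CCAAT was found in the windows of SOX2, SOX4 and SOX12 and in 35.7% of 27305 RefSeq promoters of the same length. The SOX4 window held 4 matches, a number reached by 1.06% of promoters. ATGCAAAT was found in SOX12 among the members and in 1.8% of promoters. ACAAAG, a core of sites bound by SOX and TCF proteins, was found in SOX2 and in 16% of promoters. ACAATG (11.0% of promoters), TATAAA (12%) and GACCACCC, the core of the GLI site (1.0%), were found in none of the 5 members' windows. The share of G and C was 80.3% for SOX12, 63.3% for SOX2, 62.7% for SOX13, 60.0% for SOX6 and 49.3% for SOX4, beside a median of 58.3% over all promoters.

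Levels were compared between genes as CPM per kilobase of annotated exon sequence. SOX12 was the most abundant member in both groups, at 12 ± 0.421 CPM per kilobase in siRCC2 and 15.6 ± 0.613 in siCtrl (SD, n = 3 libraries each). SOX4 came next, at 10.1 ± 1.22 in siRCC2 and 6.45 ± 0.318 in siCtrl. SOX9 stood above SOX13 in siRCC2 (7.19 ± 0.417 and 6.18 ± 0.357) and below it in siCtrl (2.52 ± 0.468 and 3.99 ± 0.348). Within each group the libraries of these 4 genes did not overlap with those of their neighbours in the order. SOX15 followed at 1.33 ± 0.377 in siRCC2 and 0.804 ± 0.231 in siCtrl, and SOX7 at 0.0846 ± 0.042 and 0.412 ± 0.0378. SOX2 and SOX6 stood at the bottom, and their siCtrl libraries overlapped. In siRCC2 cells the lowest library of SOX7 was level with the highest of SOX2 (0.0481 CPM per kilobase in both). In siCtrl cells the level of SOX12 stood at the 78.3rd percentile of 13392 tested protein-coding genes, SOX4 at the 55.8th and SOX9 at the 32.2nd. The place of SOX13 depends on the length used: over its longest transcript of 3.587 kilobases, in place of 7.42 kilobases of exons, it reached 12.8 ± 0.738 in siRCC2 and 8.25 ± 0.72 in siCtrl, rank 1 among the members in siRCC2 cells, where its libraries overlapped with those of SOX12, and rank 2 in siCtrl cells.

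**Figure D1:**
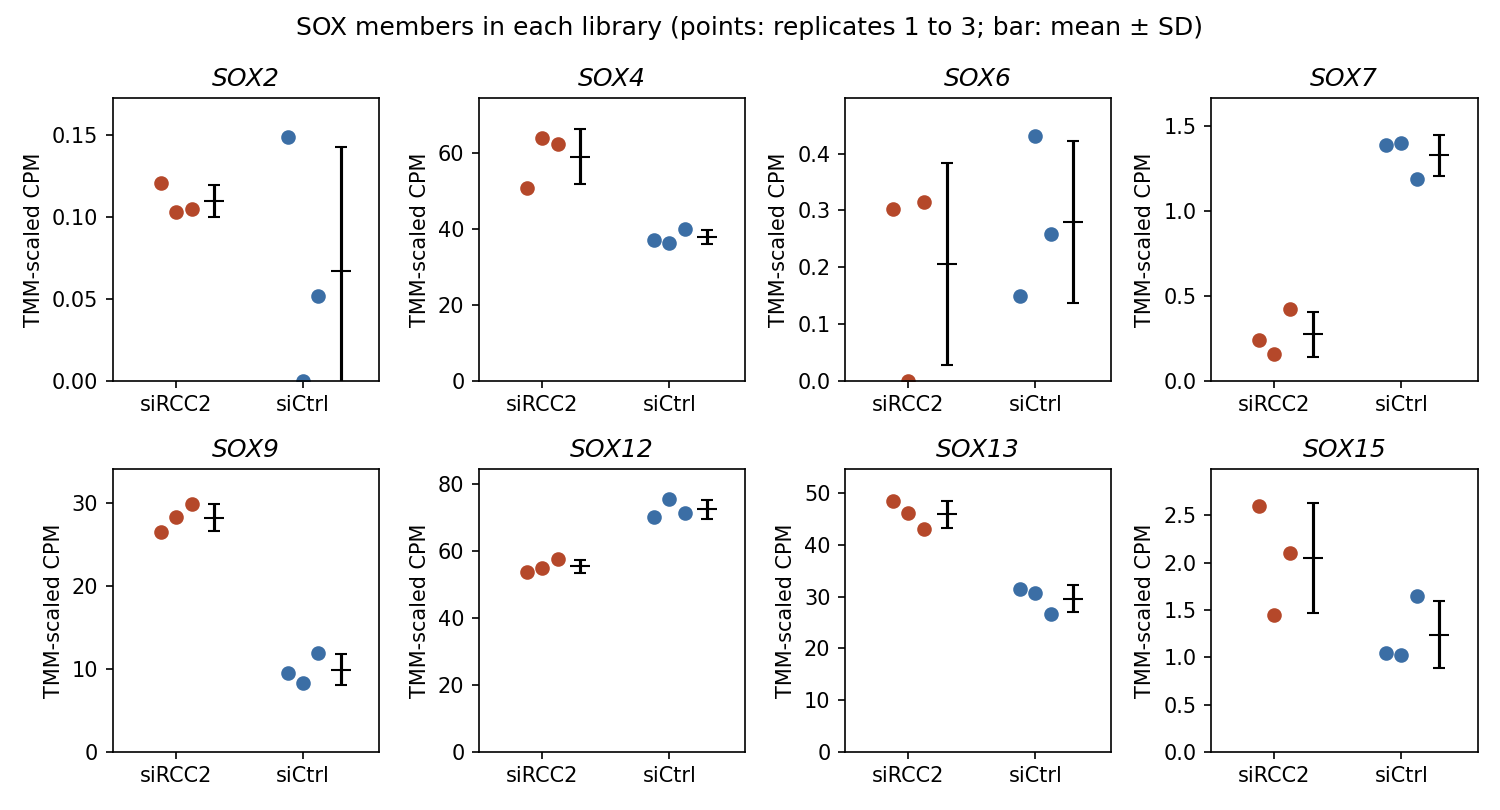
TMM-scaled CPM (y axis, linear, from 0) of each of the 8 SOX members in the 3 siRCC2 libraries (left) and the 3 siCtrl libraries (right). Points are replicates 1 to 3 from left to right and bars the mean ± SD. SOX4, SOX9 and SOX13 lie higher in every siRCC2 library, SOX7 and SOX12 lower, and SOX2, SOX6 and SOX15 overlap between the groups. The lower end of the SD bar of SOX2 in siCtrl is cut off at 0.

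Of the 8 members, 6 passed the filter on low counts and were tested, and SOX2 and SOX6 did not pass it. SOX4, SOX9 and SOX13 were higher and SOX7 and SOX12 lower in siRCC2 cells at an adjusted p under 0.05, while SOX15 did not pass. Over all 16536 genes tested, 41.8% were called (20.7% higher and 21.1% lower). The groups did not overlap for the same 5 members, and for 55.4% of all tested genes (26.9% higher and 28.5% lower). SOX7 passed the filter through its siCtrl libraries alone, and a gene that passes in that way had to differ. In bulk RNA, fewer cells that express a gene and less of its RNA per cell cannot be told apart.

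SOX9, the SoxE member, had the largest rise. It is known as the master factor of cartilage and male sex determination and as a gene that Hedgehog signalling raises in several tissues. Its row (ENSG00000125398, GRCh38 chromosome 17, 72121020 to 72126420, plus strand) held 440, 551 and 570 counts in siRCC2 replicates 1 to 3, against 191, 155 and 232 in siCtrl replicates 1 to 3. That is 26.6, 28.4 and 29.9 CPM in siRCC2 libraries and 9.48, 8.35 and 11.9 CPM in siCtrl libraries. The lowest siRCC2 library lay above the highest siCtrl library by more than the spread of either group. The level rose to 28.3 ± 1.64 CPM in siRCC2 cells, against 9.93 ± 1.84 CPM in siCtrl cells (SD, n = 3), 2.85-fold higher (log2 fold change 1.51 ± 0.15; edgeR adjusted p = 0.000377). SOX9-AS1, annotated on the other strand around SOX9, had 1 or 2 counts in every library and shares no exonic base with it.

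SOX4, a SoxC activator described in progenitor and tumour cells, rose less. The gene lies on chromosome 6, 21592769 to 21598619 (ENSG00000124766, plus strand). It had 50.9, 63.9 and 62.3 CPM in siRCC2 replicates 1 to 3, against 37.1, 36.3 and 39.8 CPM in siCtrl replicates 1 to 3. The siRCC2 libraries all lay above the siCtrl libraries, with replicate 1 the lowest of the 3. The mean was 59 ± 7.13 CPM in siRCC2 cells and 37.7 ± 1.86 CPM in siCtrl cells, 1.56-fold higher (log2 fold change 0.65 ± 0.11; edgeR adjusted p = 0.00334). Without siRCC2 replicate 1 the log2 fold change was 0.73 ± 0.08 (adjusted p = 0.000672). Leaving out any other library gave 0.60 to 0.68, with a higher edgeR adjusted p of 0.01 to 0.0184.

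SOX12, the other SoxC member, whose protein acts on like sites as a weaker activator, fell. Its row (ENSG00000177732, chromosome 20, 325401 to 330224, plus strand), whose start region is printed above, held 888, 1066 and 1097 counts in siRCC2 libraries, against 1413, 1401 and 1383 in siCtrl libraries. In CPM this was 53.7, 54.9 and 57.5 in siRCC2 and 70.1, 75.5 and 71.3 in siCtrl. The fall was small but exceeded the spread within either group. It came to 55.4 ± 1.95 CPM in siRCC2 cells, against 72.3 ± 2.84 CPM in siCtrl cells (log2 fold change -0.38 ± 0.07; edgeR adjusted p = 0.00568), or 0.766 of the siCtrl level. NRSN2-AS1, annotated on the other strand across SOX12 with no exonic base in common, had 47 to 52 counts in siRCC2 and 56 to 93 in siCtrl libraries (log2 fold change -0.53 ± 0.23, edgeR adjusted p = 0.102), and passed the threshold without siCtrl replicate 1 (adjusted p = 0.0253).

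SOX13, a SoxD protein known as an autoantigen and as a binding partner of TCF factors, rose about as much as SOX4. The row (ENSG00000143842, chromosome 1, 204073115 to 204127743, plus strand) held 800, 896 and 822 counts in siRCC2 libraries, against 634, 569 and 517 in siCtrl libraries. These are 48.4, 46.2 and 43.1 CPM in siRCC2 and 31.5, 30.7 and 26.6 CPM in siCtrl, again with no overlap. Here siRCC2 replicate 1 was the highest of its group, where for SOX4 it was the lowest. The means were 45.9 ± 2.65 CPM in siRCC2 cells and 29.6 ± 2.58 CPM in siCtrl cells, 1.55-fold higher (log2 fold change 0.63 ± 0.10; edgeR adjusted p = 0.0025). No row of the tables overlaps the locus of SOX13 or of SOX4.

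SOX6, the other SoxD member, which lacks an activation domain of its own and works in red cell and cartilage maturation, was near the floor of detection. It had 5, 0 and 6 counts in siRCC2 libraries and 3, 8 and 5 in siCtrl libraries, and a difference was not detectable at this depth. The C11orf58 row on the opposite strand, which shares 219 exonic bases with SOX6, had 1347 to 1673 counts in siRCC2 and 1178 to 1360 in siCtrl libraries, and rose (log2 fold change 0.36 ± 0.08; edgeR adjusted p = 0.00873). Whether the SOX6 counts include reads of C11orf58 was not tested.

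SOX7, a SoxF factor of early endothelium and endoderm that is known to oppose beta-catenin, had few counts and the largest fold change of the members. It had 4, 3 and 8 counts in siRCC2 libraries, against 28, 26 and 23 in siCtrl libraries (ENSG00000171056, chromosome 8, 10723768 to 10730512, minus strand). That is 0.242, 0.155 and 0.419 CPM in siRCC2 and 1.39, 1.40 and 1.19 CPM in siCtrl, where 3 counts are worth 0.151 to 0.173 CPM of the unscaled totals. The log2 fold change was -2.25 ± 0.36 (edgeR adjusted p = 0.00265). This value is uncertain because 38.9% of the 50-base stretches of the longest SOX7 transcript also occur in transcripts of other genes, mostly in those of an overlapping row named PINX1 (ENSG00000258724) on the same strand, with which SOX7 shares 1268 exonic bases. That PINX1 row had 62, 30 and 53 counts in siRCC2 libraries and 70, 79 and 32 in siCtrl libraries (log2 fold change -0.22 ± 0.42, edgeR adjusted p = 0.699). Its sign turned without siCtrl replicate 2 (0.06) or siRCC2 replicate 2 (0.08). Summed, SOX7 and this row had 66, 33 and 61 counts in siRCC2 libraries, against 98, 105 and 55 in siCtrl libraries, and the groups overlapped. The sum gave a log2 fold change of -0.59 ± 0.36 (edgeR adjusted p = 0.232), so the call for SOX7 does not hold for the pair. Most counts of the sum were those of the PINX1 row in every library. Another row named PINX1 (ENSG00000254093), outside the SOX7 locus, had 402, 478 and 387 counts in siRCC2 libraries. It had 293, 271 and 323 in siCtrl libraries, and rose (log2 fold change 0.60 ± 0.12, edgeR adjusted p = 0.00721). That row was not part of the sum, and sharing of reads between the PINX1 rows was not tested.

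SOX15, the lone SoxG gene of mammals, was low and varied between libraries. It had 43, 28 and 40 counts in siRCC2 libraries, against 21, 19 and 32 in siCtrl libraries (ENSG00000129194, chromosome 17, 7588178 to 7590170, minus strand). The means were 2.05 ± 0.58 CPM in siRCC2 cells and 1.24 ± 0.356 CPM in siCtrl cells, and siRCC2 replicate 2 lay below siCtrl replicate 3. The log2 fold change of 0.71 ± 0.31 did not pass the threshold (edgeR adjusted p = 0.104). MPDU1, on the other strand and with 15 exonic bases in common, had a log2 fold change of -0.30 ± 0.17 (edgeR adjusted p = 0.187), and of -0.47 without siCtrl replicate 1 (adjusted p = 0.0211).

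SOX2, the SoxB1 member, had 2 counts in each siRCC2 library and 3, 0 and 1 in siCtrl libraries, at or under the 3 counts that a count of 0 allows. No difference was detectable at this depth. SOX2-OT, a long RNA within which SOX2 lies, had 0, 1 and 1 counts in siRCC2 and 3, 6 and 4 in siCtrl libraries and was not tested.

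**Figure D2:**
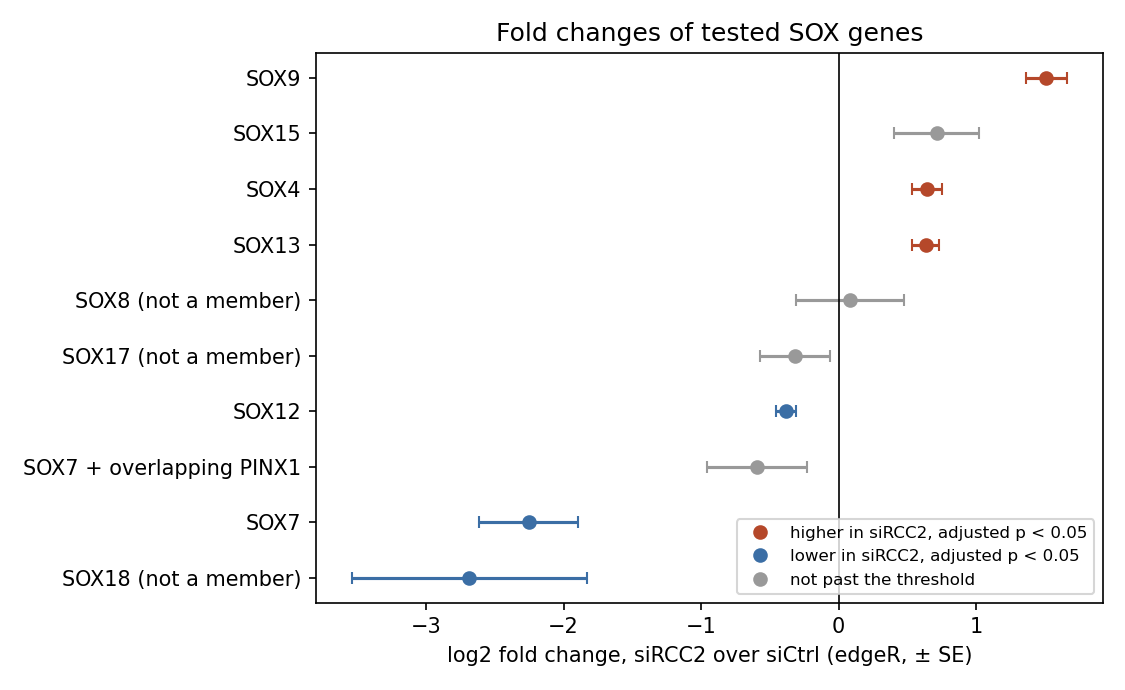
Log2 fold change, siRCC2 over siCtrl (x axis), with its standard error, for the 6 tested members, the sum of SOX7 and the overlapping PINX1 row, and 3 tested SOX genes outside the members. Colour gives the edgeR call at an adjusted p of 0.05. SOX9 stands at 1.51, SOX12 at -0.38, and SOX7 at -2.25 alone but -0.59 summed with PINX1.

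**Figure D3:**
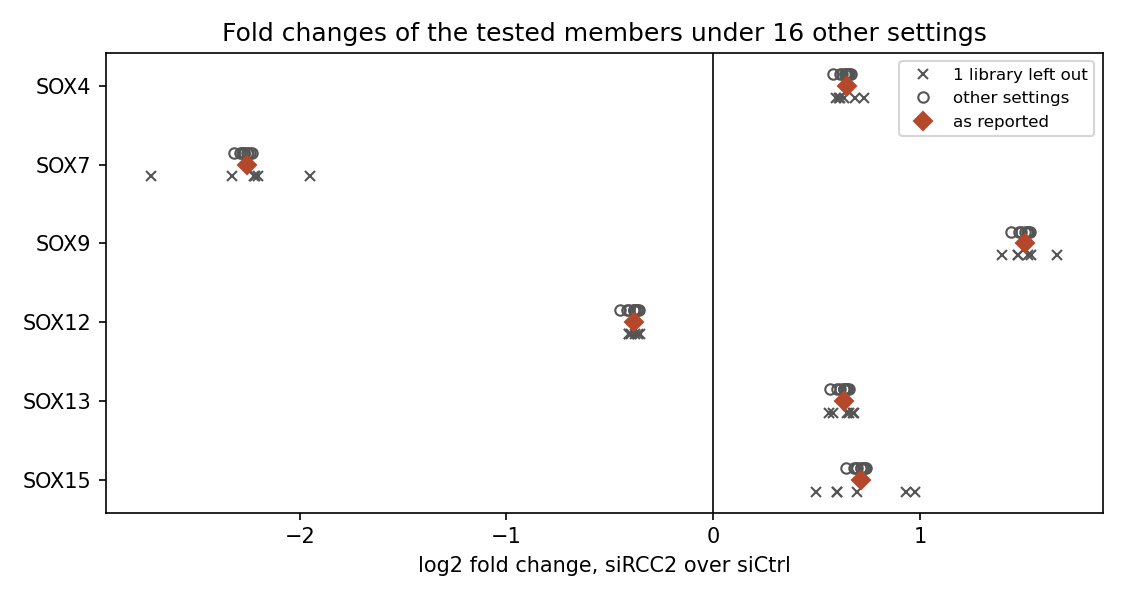
Log2 fold change, siRCC2 over siCtrl (x axis), of the 6 tested members as reported (diamond), with 1 library left out (crosses) and under the other settings (circles). SOX9 stays between 1.40 and 1.66, and SOX7 moves most, from -2.72 to -1.95.

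The make-up of the SOX counts differed between the groups. Shares and ratios are taken within a library and do not depend on how libraries were scaled. SOX12 made up 29.4%, 28.1% and 29.4% of the 8 members' counts in siRCC2 replicates 1 to 3, against 46.5%, 49.1% and 46.6% in siCtrl replicates 1 to 3. SOX9 made up 14.6%, 14.5% and 15.3% in siRCC2 libraries, against 6.28%, 5.44% and 7.82% in siCtrl libraries. The ratio of SOX4 to SOX12 counts was 0.947, 1.16 and 1.08 in siRCC2 libraries and 0.529, 0.48 and 0.559 in siCtrl libraries. The SoxC pair thus stood near parity in counts in siRCC2 cells and not in siCtrl cells. Per kilobase, SOX12 stayed above SOX4 in both groups, as given above. The ratio of SOX9 to SOX12 counts was 0.511 ± 0.0137 in siRCC2 cells and 0.138 ± 0.0286 in siCtrl cells (SD, n = 3). SOX4 counts were 2.08 ± 0.17 times those of SOX9 in siRCC2 cells and 3.86 ± 0.507 times in siCtrl cells. The summed level of the members was 191 ± 7.28 CPM in siRCC2 cells and 152 ± 1.39 CPM in siCtrl cells. The groups did not overlap in any of these 6 quantities, each with a two-sided exact permutation p = 0.1, the smallest that 3 libraries against 3 allow. These quantities rest mainly on genes whose groups were already seen not to overlap, so they add no separate support. The summed counts before scaling and the shares of SOX2, SOX6 and SOX15 did overlap (p from 0.2 to 0.7 by the same test).

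**Figure D4:**
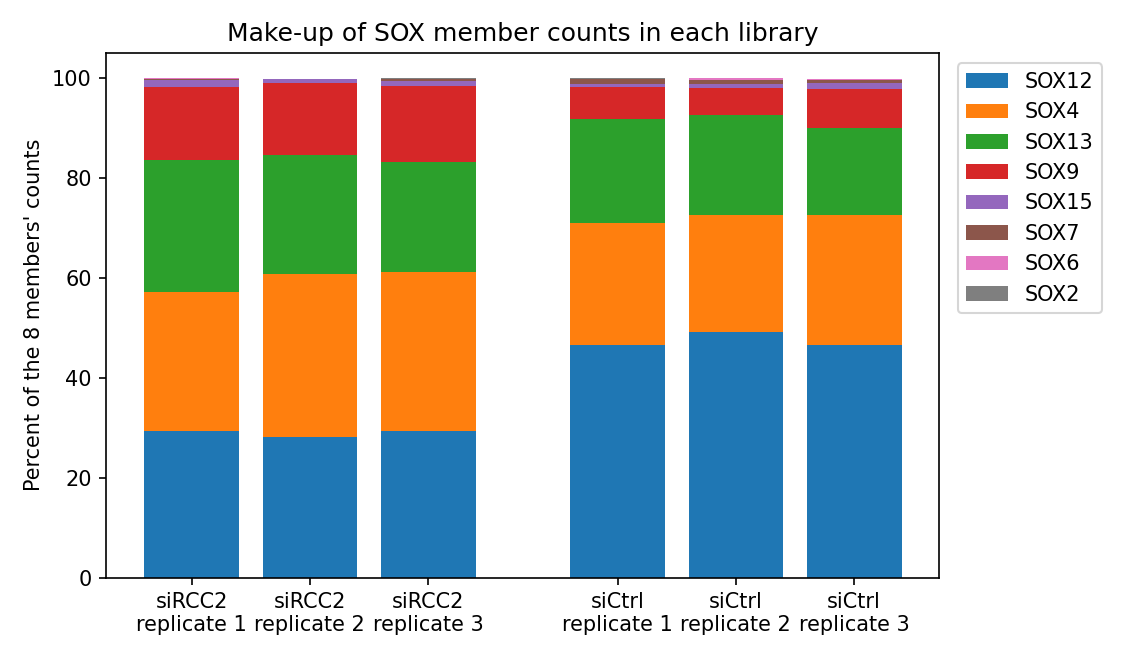
Percent of the 8 members' summed counts (y axis) held by each gene in the 3 siRCC2 libraries (left) and the 3 siCtrl libraries (right). SOX12 holds 28.1% to 29.4% in siRCC2, against 46.5% to 49.1% in siCtrl, and SOX9 holds 14.5% to 15.3% against 5.44% to 7.82%.

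Of 11 SOX genes outside the members, 5 (SOX1, SOX3, SOX10, SOX14 and SOX30) had 0 counts in every library, and 3 were tested. SOX18, a SoxF factor of blood and lymph vessels, had 0, 0 and 8 counts in siRCC2 libraries, against 15, 20 and 21 in siCtrl libraries. Like SOX7 it passed the filter through its siCtrl libraries alone, so it had to differ, and its log2 fold change of -2.68 ± 0.86 (edgeR adjusted p = 0.0406) is given as a description. With limma-voom the value was -3.80. Without siRCC2 replicate 3, which holds all 8 siRCC2 counts, it was -7.19, a fitted value against libraries at 0 that is no bound. Omitting any other library gave an adjusted p of 0.0667 to 0.106, and the replicate block 0.0588. The summed endothelial markers given above were also lower in siRCC2 libraries, mostly through KDR (0.069 CPM, against 0.588 CPM in siCtrl cells). CDH5 was also lower, VWF overlapped between the groups, and PECAM1 was higher (0.254 CPM in siRCC2 cells, against 0.119 CPM in siCtrl cells). All 4 were near the floor and did not pass the filter, and their part in the result was not tested. SOX17, also of SoxF (-0.32 ± 0.25, edgeR adjusted p = 0.349), and SOX8 of SoxE (0.08 ± 0.39, edgeR adjusted p = 0.885) did not pass. SOX5 and SOX11, the relatives of SOX6 and SOX4, had 5 to 20 and 0 to 1 counts per library, SOX21 had 0 to 2, and none of the 3 was tested.

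Partner factors, targets and upstream signals of SOX proteins are given next by counts, to be read against the 41.8% of all tested genes called (20.7% higher and 21.1% lower). Nothing particular to these lists is read from the counts. Of 4 tested genes among the TCF/LEF factors, which carry an HMG box, and beta-catenin, which does not, 1 rose and 0 fell. The median log2 fold change was 0.31, beside -0.02 over all tested genes. The tested TCF/LEF factors did not pass the threshold. CTNNB1, which encodes beta-catenin, rose to 254 ± 5.84 CPM in siRCC2 cells, against 199 ± 10.1 CPM in siCtrl cells (0.35 ± 0.06; edgeR adjusted p = 0.00491). Of the POU and PAX partners 2 were tested, and PAX6, the eye lens partner of SOX2, fell to 2.12 ± 0.472 CPM, against 4.36 ± 0.469 CPM in siCtrl cells (-1.03 ± 0.21; edgeR adjusted p = 0.00697). Of 10 co-activators and co-repressors 3 rose and 0 fell, with a median of 0.16. They were the co-repressor CTBP2 (0.42 ± 0.08), the deacetylase HDAC1 (0.53 ± 0.09) and the Groucho-type co-repressor TLE1 (0.36 ± 0.09, a call lost without siCtrl replicate 1 or siCtrl replicate 3, adjusted p from 0.0622 to 0.0627). Of 6 genes whose products set the stability of SOX proteins 2 rose and 1 fell, with a median of 0.28. The methyltransferase SETD7 (0.71 ± 0.13) rose, the ubiquitin-conjugating enzyme UBE2S (-0.51 ± 0.07) fell, and SDCBP, which encodes syntenin, a partner of SOX4, rose by 0.42 ± 0.14 (a call lost without replicate 2 or 3 of siRCC2 or 1 or 2 of siCtrl, adjusted p from 0.0949 to 0.133, with total counts as scaling, 0.0919, and with all genes of at least 1 read kept, 0.0646).

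Of 11 tested genes described as targets of SOX4 or SOX11, 4 rose, 3 fell and 4 did not pass, with a median of 0.26, beside 20.7% higher and 21.1% lower over all tested genes. TEAD2, a partner of YAP, rose (0.59 ± 0.09), as did the Wnt receptor gene FZD5 (0.58 ± 0.10), the helicase gene DHX9 (0.63 ± 0.07) and the histone methyltransferase gene EZH2 (0.29 ± 0.09). The guidance factor SEMA3C fell (-0.95 ± 0.26), as did the growth factor receptor EGFR (-0.32 ± 0.10) and the matrix gene TNC (-0.27 ± 0.06). Of these, 4 calls depended on single libraries. EZH2 lost its call without any library other than siRCC2 replicate 1 (adjusted p from 0.0774 to 0.101), and SEMA3C without any siCtrl library (0.0559 to 0.071). EGFR lost it without replicate 1 or 3 of either group (0.0729 to 0.129), and TNC without replicate 2 of either group (0.0587 to 0.111). EZH2 also lost its call with total counts as scaling (adjusted p = 0.104), with all genes of at least 1 read kept (0.0910) and with the replicate block (0.0664). EGFR lost it with DESeq2 (adjusted p = 0.0519), with protein-coding genes only (0.0516) and with the replicate block (0.0811). Of 13 cartilage matrix genes described as SOX9 targets, 4 passed the filter and 3 had 0 counts in every library. COL11A2, a chain of collagen XI, rose to 3.52 ± 0.609 CPM in siRCC2 cells, against 1.19 ± 0.137 CPM in siCtrl cells (1.56 ± 0.21; edgeR adjusted p = 0.0013). The matrilin gene MATN3 fell to 4.73 ± 0.272 CPM, against 7.48 ± 0.34 CPM in siCtrl cells (-0.66 ± 0.13; edgeR adjusted p = 0.00557). COL2A1, the classical target of SOX9, had 0 or 1 count in each library.

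Of signals described upstream of SOX4 and SOX9, 15 were tested, of which 4 rose and 3 fell, with a median of 0.09, beside 41.8% called in either direction over all tested genes. The ligand gene TGFB1 rose (0.50 ± 0.09; edgeR adjusted p = 0.00473), while SMAD3 (-0.37 ± 0.06) and SMAD4 (-0.42 ± 0.10), which carry its signal to the nucleus, fell, SMAD4 with a call lost without siCtrl replicate 1 (adjusted p = 0.0618). The receptor gene NOTCH1 rose (0.50 ± 0.08; edgeR adjusted p = 0.00241). NOTCH2 rose (0.23 ± 0.06), a call lost without siRCC2 replicate 2 or any siCtrl library (adjusted p from 0.0581 to 0.126), with total counts as scaling (0.0643) and with all genes of at least 1 read kept (0.0916). The receptor gene FGFR3 rose (0.65 ± 0.20), a call lost without replicate 3 of either group, siRCC2 replicate 1 or siCtrl replicate 2 (0.0616 to 0.115), or with all genes of at least 1 read kept (0.0605). EGFR is given above.

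**Figure D5:**
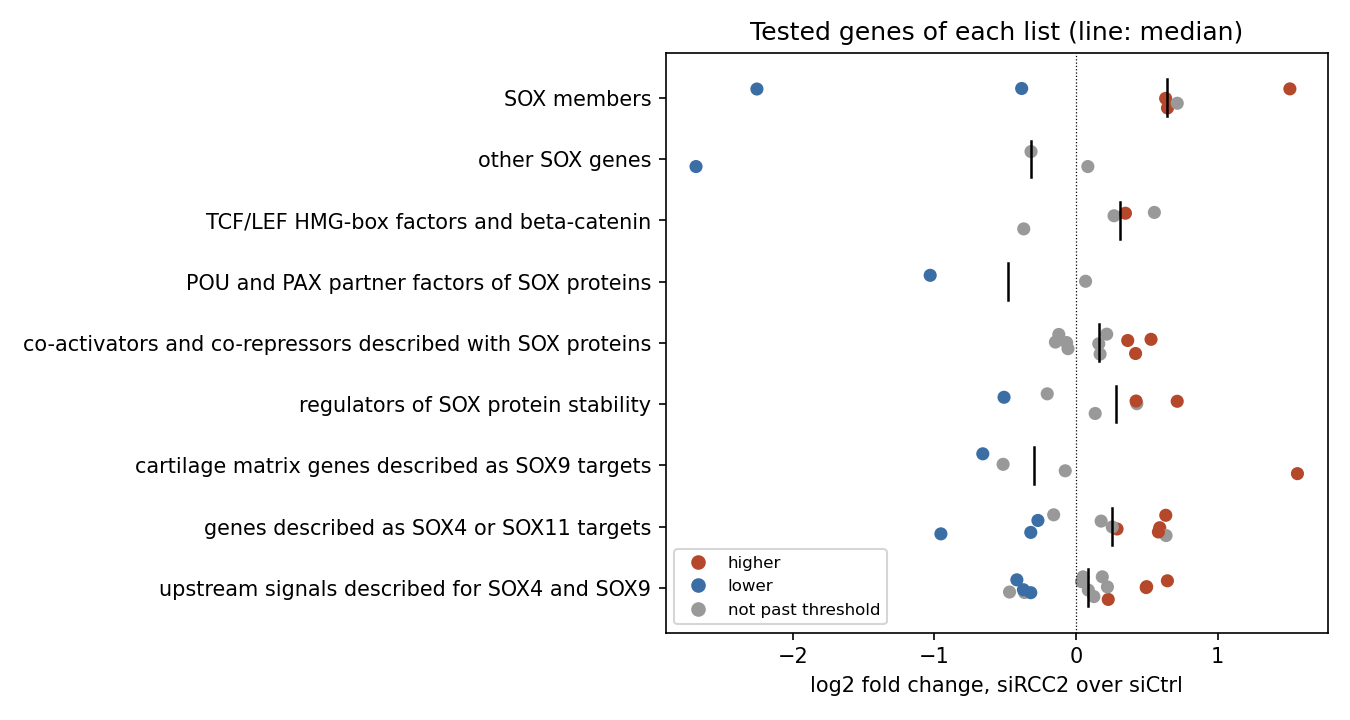
Log2 fold change, siRCC2 over siCtrl (x axis), of every tested gene of each list (rows), with the vertical line at the list's median. Colour gives the edgeR call at an adjusted p of 0.05. The medians run from -0.48 (POU and PAX partners, 2 genes) to 0.31 (TCF/LEF factors and beta-catenin) below the row of SOX members.

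The genes most like each called member were found by the root mean square difference of log2 CPM, centred per gene, over the 6 libraries, among 12625 protein-coding genes of at least 1 CPM. For SOX9 they were RGS2 (difference 0.065), CARD6 (0.068) and TFPI2 (0.109). TFPI2, a protease inhibitor, rose to 32.3 ± 2 CPM in siRCC2 cells, against 10.8 ± 1.13 CPM in siCtrl cells. The direction of all these nearest genes was fixed by how they were picked, so their changes add no support. For SOX4 they were SRP19 (0.036), HSDL2 (0.047) and MFAP1 (0.047), and for SOX13 CENPB (0.027), DAGLB (0.034) and PARL (0.035). For SOX12 they were HIVEP1 (0.025), GOSR1 (0.028) and NLRC5 (0.029), of which HIVEP1 lost its call without siRCC2 replicate 2 or any siCtrl library (adjusted p from 0.0806 to 0.13), with DESeq2 (0.0928), with all genes of at least 1 read kept (0.0615) and with the replicate block (0.0781), and NLRC5 without replicate 2 of either group or siCtrl replicate 3 (0.0575 to 0.0737). Among those nearest to SOX7, BFSP1 stood at 0.195 and SEMA3G at 0.208.

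The 3′ UTRs of the members were searched for TCTGGA on the transcript strand, a run chosen because earlier results of these data singled it out. SOX12 held 2 matches, SOX2, SOX6, SOX7 and SOX13 held 1 each, and SOX4, SOX9 and SOX15 held 0. It was found in 42.4% of 18199 protein-coding genes whose 3′ UTR reaches 100 bases or more. The members' 3′ UTRs ran from 200 bases (SOX15) to 6360 bases (SOX6), and the absence in SOX4 was over 2660 bases. Tested genes with a match had a median log2 fold change of -0.12 and a median 3′ UTR of 2504 bases, and those without 0.04 and 844 bases. Because the run was chosen from these same data, the difference in medians adds no support for it. SOX12, which fell, and SOX13, which rose, hold the run. So does SOX7, whose row was lower alone, a call that did not hold when it was summed with the overlapping PINX1 row.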

How the data were processed

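The authors deposited whole-number counts for 50868 genes in a table for each of 3 siRCC2 and 3 siCtrl libraries. The submitters' processing notes name Bowtie2, RSEM, DESeq2 and GRCh38 without versions, so the counts may be rounded RSEM estimates, in which reads of like sequences are shared out between genes. Strand handling is not stated there. Of all rows, 0 had no gene identifier. Libraries within a group were not duplicates (chi-square over its degrees of freedom 9.56 to 31.9).

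edgeR 4.0.16 in R 4.3.3 was run on the counts (filterByExpr, TMM, glmQLFit and glmQLFTest). P-values were adjusted by Benjamini-Hochberg over 16536 genes, with 0.05 as threshold. The code was tested on simulated data in which a far smaller share of genes was changed than was called here. Standard errors are the log2 fold change over the square root of F, and other errors are SD. DESeq2 1.42.0 and limma 3.58.1 served as alternatives. Gene types, lengths and transcripts came from GENCODE release 29 (50111 identifiers matched), and coordinates from the files.

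The members and lists were chosen with earlier results of these data known. Genes named are the members, RCC2, rows overlapping a member, the 3 genes nearest each called member and up to 6 called genes per list. Some genes this rule or the marker lists name are not reported here. COL2A1, SOX genes outside the members that did not pass, and untested rows were named after their values were seen. So were the sum of SOX7 with the overlapping PINX1 row and the other row named PINX1. Limits from 0 counts cover counting error only.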

Additional observations from a re-analysis of the deposited data

How the results depend on the processing

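Under 16 other settings (3 scalings, DESeq2, limma-voom, 3 gene filters, a replicate block, 6 omissions of a library, and a threshold of 0.01), the 6 tested members kept their direction and their side of the threshold. The log2 fold changes ran from 1.40 to 1.66 for SOX9, 0.58 to 0.73 for SOX4, 0.56 to 0.68 for SOX13, -0.45 to -0.35 for SOX12, -2.72 to -1.95 for SOX7 and 0.50 to 0.97 for SOX15. The highest adjusted p of a called member was 0.0362, for SOX12. With the replicate number as a block, 3075 genes were higher and 3220 lower, and SOX9 had a log2 fold change of 1.52. Same-numbered libraries did not deviate together (correlations of 0.059, -0.042 and 0.099), so the numbers were not taken as pairs. A threshold of 0.01 left 2069 genes higher and 2048 lower, in place of 3423 and 3488. It also ended the calls of HIVEP1, NLRC5, SOX18, TLE1, SDCBP, EZH2, SEMA3C, EGFR, TNC, SMAD4, NOTCH2 and FGFR3. Summing SOX7 with the overlapping PINX1 row, an alternative added after the data were seen, gave -0.59 (adjusted p = 0.232) and left 1 member lower in place of 2. The PINX1 row alone ran from -0.54 to 0.079 when a library was left out, with the sign changed without siCtrl replicate 2 (0.06) and siRCC2 replicate 2 (0.079). The cause was not tested. The median of all tested genes ran from -0.083 with total counts alone to -0.001 with DESeq2 size factors. Counts of SOX2, SOX6 and SOX7 are limited by depth.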
